A study of Homo sapiens with 20 samples.

Results

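AU565 is a breast cancer line with amplified HER2 (the gene ERBB2), and the comparison described here is of AU565 cells given torkinib against untreated AU565 cells. It rests on 4 of the 20 RNA-seq libraries of a series of 5 cell lines, chosen by their labels: torkinib replicates 1 and 2, at 4 µM for 72 h, and untreated replicates 1 and 2, for which the labels give no culture time. Both groups are of the same line, with no engineered allele, and were grown in complete RPMI medium with sodium pyruvate and sodium bicarbonate. The other lines enter only where a response is set against that of AU565. These are SKBR3, a breast line established from the same patient as AU565, at 0.8 µM torkinib; A375 and SKMEL28, melanoma lines, at 4 µM; and 94T778, a liposarcoma line, at 10 µM, each for 72 h and each with untreated cells. Per the labels, the doses stopped the cell cycle without loss of viability, and the series addresses what MTOR inhibition does to the expression of DNA repair genes.

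Torkinib is a small molecule that competes with ATP in the catalytic site of the kinase MTOR. MTOR works in a pair of complexes: complex 1, with RPTOR, promotes translation, ribosome and lipid synthesis and restrains autophagy, and complex 2, with RICTOR, activates AKT. In HER2-amplified breast cells, AKT and MTOR lie downstream of the HER2 receptor, and loss of their activity is known to release feedback that holds back receptor and insulin receptor substrate genes.

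The AU565 libraries held 5337649 and 7007764 reads counted on genes with torkinib and 9737903 and 7521790 untreated. Genes encoded in mitochondrial DNA took 6.32% and 6.2% of counts with torkinib, against 4.66% and 4.11% untreated. The 10 most abundant genes took 10.6% and 10.4% with torkinib, against 7.30% and 6.82% untreated, and 14.1% and 13.5% of reads with torkinib, against 10.2% and 11.1% untreated, aligned to several places. Luminal breast markers identified the cells: the 44 listed genes summed to 11813 and 12258 CPM (counts scaled for library size) with torkinib, against 15753 and 16179 CPM untreated. ERBB2 stood at 5578 and 5951 CPM with torkinib, against 9842 and 9390.5 CPM untreated. The markers PGR, CDH1 and TFF1 were too low to test. Basal markers summed to 108 and 93.4 CPM with torkinib, against 174 and 169 CPM untreated, and KRT5, KRT14 and TP63 were too low to test. Melanocyte genes summed to 90.8 and 85.2 CPM with torkinib, against 17.4 and 15.5 CPM untreated, mostly through MCAM and MITF, while PMEL, the defining one, was at 2.85 and 3.95 CPM with torkinib, against 3.51 and 2.74 CPM untreated. Libraries of other lines that stand apart bear on the differences between lines: SKBR3 untreated replicate 2 held more PMEL than replicate 1 (23.7 against 7.53 CPM) and less mitochondrial RNA, and A375 untreated replicate 1 held more MDM2, a gene amplified in 94T778, than replicate 2 (223 against 106 CPM). Counts of such differences are given with and without these libraries where they move by over 1.5 times, and in some other cases.

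Torkinib changed the level of 9250 genes of AU565 (55.4% of those tested). Of 16698 genes tested by edgeR's quasi-likelihood test, 4484 (26.9%) were higher and 4766 (28.5%) were lower with torkinib at a Benjamini-Hochberg adjusted p under 0.05, the threshold for every gene said here to have risen or fallen. Changes of at least 2-fold were called for 2000 genes upward and 1920 downward (11.5%). The shares of 26.9% and 28.5% are the background for the counts of rises and falls in each gene list below. Both torkinib libraries lay above both untreated ones for 6263 genes (37.5%) and below them for 6153 (36.8%). Levels are CPM scaled by library size and TMM factors, in torkinib replicates 1 and 2 and untreated replicates 1 and 2, n = 2 each throughout, and changes are log2 fold changes of torkinib over untreated ± SE of the fit. The SE was derived as the absolute log2 fold change divided by the square root of the F statistic of the test. The labels leave unsaid whether the replicates are separate cultures, and p-values then measure only the spread between libraries, which may be technical. In bulk RNA, fewer cells of a type and less RNA per cell cannot be told apart.

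**Figure D1:**
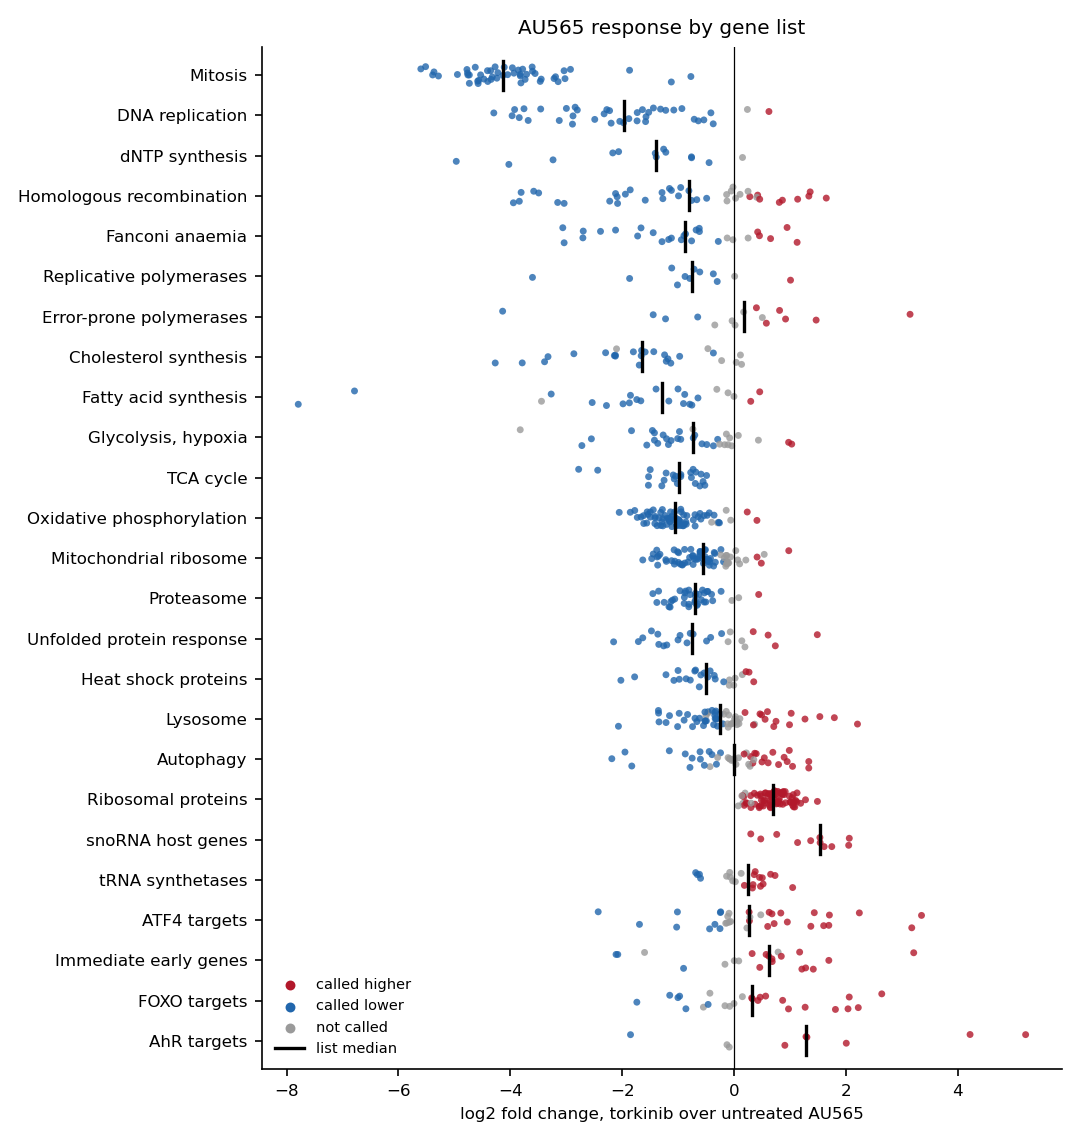
Each point is a tested gene of AU565, placed by its log2 fold change of torkinib over untreated (x axis) within its gene list (y axis), coloured by its call, with the list median as a bar. Mitotic genes lie farthest to the left, with a median of -4.13, and ribosomal protein genes lie to the right of 0, with a median of 0.71.

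The genes with the largest rises, among those with at least 10 CPM in the higher of the groups, were led by CYP1A1. This cytochrome P450, which oxidises aromatic compounds, stood at 1416 and 1442 CPM with torkinib, against 40.3 and 36.3 CPM untreated, a log2 fold change of 5.22 ± 0.09, and CYP1A2, of the same family, at 19.6 and 19.2 CPM with torkinib, against 0.744 and 1.37 CPM untreated. LBH, a transcription cofactor of mammary epithelium, had 59.5 and 57.2 CPM with torkinib, against 1.27 and 1.92 CPM untreated, and TFPI2, a serine protease inhibitor of the matrix, had 29.3 and 32.8 CPM with torkinib, against 1.38 and 0.959 CPM untreated. Among the other large rises were AMY2B, VWA2, MYPN, COL28A1, ZNF528, BEX2 and HIST1H2AC, with log2 fold changes between 3.92 and 4.67. AMY2B, an amylase, and HIST1H2AC, an H2A histone, have near-identical copies among which reads may be split. In all of these genes the torkinib and untreated libraries did not overlap, which the choice required.

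Several of the genes with the largest falls were left with almost no reads. FGB and FGG, chains of fibrinogen, had 0 and 2 reads over both torkinib libraries, against 1095 and 1775 over both untreated ones. FGB was therefore at least 264-fold lower with torkinib, against a floor of 3 reads over the group, and FGG was lower by a ratio of 643 (exact 95% counting interval 178 to 5309). AKR1C2, an aldo-keto reductase that acts on steroids and has near-identical copies, had 0 reads with torkinib against 785 untreated, at least 189-fold lower. AKR1B10, another aldo-keto reductase, had 0.95 and 0.439 CPM with torkinib, against 53.5 and 60.6 CPM untreated. RBP4, the plasma carrier of retinol, had 1 read with torkinib against 356 untreated, and ORM1, an acute-phase protein, had 2 against 348. The other falls were of CLCA2 (1 read with torkinib against 354 untreated), HGD (2 against 343), FADS2 (2 against 339) and GPR141 (0 against 183, not called by DESeq2, adjusted p = 0.30), and of C11orf86 (0.95 and 0.293 CPM in torkinib libraries and 64.6 and 67.6 CPM in untreated ones) and S100A8, a calcium-binding protein of inflammation (2.47 and 2.05 CPM in torkinib libraries and 181 and 184 CPM in untreated ones). Intervals and floors cover counting error only.

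The target kinase itself was lower. MTOR had 77.5 and 81.7 CPM with torkinib, against 121 and 118 CPM untreated (-0.59 ± 0.08), and its scaffolds moved apart: RPTOR, of complex 1, had 39.1 and 43.2 CPM with torkinib, against 39.8 and 37 CPM untreated (edgeR adjusted p = 0.49), whereas RICTOR, of complex 2, rose, with 85.5 and 93.2 CPM with torkinib, against 53.7 and 51.7 CPM untreated. Among 32 genes that form or regulate the MTOR complexes, 12 rose and 12 fell, against 26.9% of all genes higher and 28.5% lower. Inhibitors of the pathway were among those that rose. DEPTOR, an inhibitor that binds MTOR, had 32.1 and 31.8 CPM with torkinib, against 9.67 and 12.6 CPM untreated. TSC1 and TSC2, which form the complex that turns off the activator RHEB, rose by 1.06 and 0.83, and RHEB fell (75.6 and 80.8 CPM with torkinib, against 137 and 146 CPM untreated). Among the other members, FLCN, which acts on the Rag GTPases at the lysosome, had 39.7 and 45.7 CPM with torkinib, against 17.4 and 15.9 CPM untreated. Unlike DEPTOR, TSC1 and TSC2, the stress-induced inhibitor DDIT4 fell, with 25.6 and 26.6 CPM with torkinib, against 149.8 and 132 CPM untreated (-2.43 ± 0.10).

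Of 12 genes of the cap-binding complex eIF4F and its binding proteins, 3 rose and 8 fell. Of all genes tested, 26.9% were higher and 28.5% lower. EIF4E, the protein that binds the mRNA cap, had 17.3 and 19 CPM with torkinib, against 43.2 and 46.3 CPM untreated. The scaffold EIF4G1 fell by 0.58 on the log2 scale. EIF4A2, a helicase paralog, had 712 and 668 CPM with torkinib, against 311 and 308 CPM untreated, and EIF4B, its cofactor, rose by 0.71. EIF4EBP1, the repressor that MTOR phosphorylates, had 14.2 and 18.4 CPM with torkinib, against 15.3 and 13.6 CPM untreated (edgeR adjusted p = 0.32), so no change was detected in its transcript. EIF4EBP3, a related repressor, had 18 reads with torkinib against 2 untreated, higher by a ratio of 12.4 (exact 95% counting interval 2.98 to 110.5), a call lost without torkinib replicate 2 (edgeR adjusted p = 0.056).

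Receptor and adaptor genes rose in part, and ERBB2 fell. Of 25 tested receptors, ligands and adaptors, 10 rose and 7 fell, against 26.9% of all genes higher and 28.5% lower. By at least 2-fold, 8 of them rose and 4 fell. INSR, the insulin receptor, had 40.1 and 44.2 CPM with torkinib, against 9.98 and 10.3 CPM untreated (2.06 ± 0.14), and IGF1R, its relative, had 77.3 and 83.8 CPM with torkinib, against 35.4 and 31 CPM untreated. The substrates that link these receptors to PI3-kinase rose as well, IRS1 with 42 and 35.4 CPM with torkinib, against 18.4 and 15.8 CPM untreated and IRS2 with 3.42 and 4.83 CPM with torkinib, against 0.531 and 0.822 CPM untreated. Of the HER family, EGFR had 742 and 748 CPM with torkinib, against 274 and 257 CPM untreated, ERBB2 had the fall already given (-0.74 ± 0.07), and ERBB3 had 380.3 and 385 CPM with torkinib, against 350.3 and 359 CPM untreated (edgeR adjusted p = 0.2). MET and FGFR2 rose by 1.26 and 1.07, and FGFR4 had 7.6 and 7.76 CPM with torkinib, against 32.2 and 28.5 CPM untreated. In each of these genes, ERBB3 included, the torkinib and untreated libraries did not overlap. This is common: both torkinib libraries lay above both untreated ones in 37.5% of all genes tested, and below them in 36.8%.

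Neighbours of ERBB2 in the amplified region 17q12 moved both ways, near the shares of all genes (26.9% higher and 28.5% lower). Of 23 genes of that region, 5 rose (3 without untreated replicate 2) and 8 fell. GRB7, an adaptor gene close to ERBB2, had 1425 and 1520.2 CPM with torkinib, against 598 and 553 CPM untreated, and STARD3, a cholesterol transporter, had 388 and 398 CPM with torkinib, against 425 and 425 CPM untreated (edgeR adjusted p = 0.17). The deepest fall in the region was of CDC6, a replication licensing gene. Among 19 genes of PI3-kinase, AKT, SGK and S6 kinase, 6 rose and 8 fell. INPP4B, a lipid phosphatase that restrains AKT, had 59.3 and 62.3 CPM with torkinib, against 13.4 and 16.2 CPM untreated, and PIK3R3, a regulatory subunit of PI3-kinase, had 48.1 and 50.9 CPM with torkinib, against 158 and 151 CPM untreated. AKT1 fell (199.8 and 206 CPM with torkinib, against 336 and 345 CPM untreated), and the S6 kinases RPS6KB1 and RPS6KB2 fell, with log2 fold changes of -0.74 and -0.96.

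**Figure D2:**
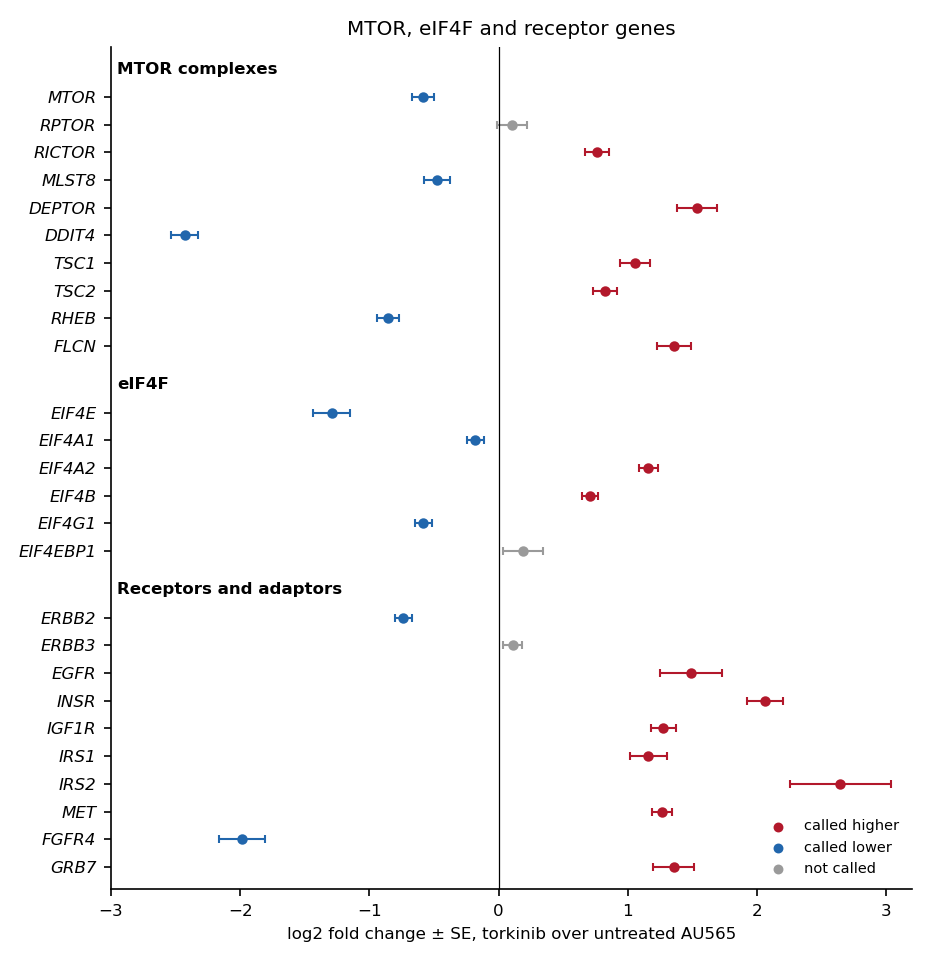
Log2 fold changes of torkinib over untreated AU565 (x axis, points, with the SE of the fit as bars) for genes of the MTOR complexes, eIF4F and receptors with their adaptors. DEPTOR, FLCN, INSR and IRS2 lie to the right of 0, and MTOR, EIF4E, DDIT4 and ERBB2 to the left.

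Genes of mitosis fell without exception. These genes are transcribed in late S, G2 and M phase, many through a promoter element bound by the MuvB complex, the cell cycle homology region (CHR), which in dividing cells works with MYBL2 and FOXM1. All 51 tested members fell, 50 of them by at least 2-fold, against 28.5% of all genes lower and 11.5% at least 2-fold lower, and the median was -4.13. CDK1, the kinase that drives entry into mitosis, had 3.42 and 4.24 CPM with torkinib, against 114 and 127 CPM untreated (-4.95 ± 0.15). PLK1, the polo kinase of the spindle poles, had 1.71 and 2.05 CPM with torkinib, against 81.5 and 79.2 CPM untreated, and MYBL2 itself had 3.61 and 5.27 CPM with torkinib, against 185 and 190.4 CPM untreated. MKI67, the proliferation antigen, had 12.7 and 11.1 CPM with torkinib, against 252 and 229 CPM untreated, and TOP2A, the topoisomerase that decatenates chromosomes, had 49.8 and 47.7 CPM with torkinib, against 746 and 772 CPM untreated. The smallest fall was of BUB3, a spindle checkpoint protein (-0.77 ± 0.09).

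The promoter sequences of mitotic and replication genes were compared because these lists moved together. Sequences are from RefSeq promoter windows on GRCh38.p14, read 5′ to 3′ on the gene's strand, and each printed stretch ends before the first annotated exon base of its gene. Where such an exon begins ahead of the gene start of the window, the bases next to that start are therefore not shown, which are 24 in CDK1, 14 in KIF4A, 26 in CDC20 and 4 in PCNA. The letters TTTGAA, the core of the CHR, stood on either strand within 250 bases before the gene's start in 25 of 46 matched windows of mitotic genes (54.3%), against 4677 of 35116 windows of all genes (13.3%) and 0 of 47 windows of replication genes. Examples follow, with the CHR letters in capitals. CDK1 lies at chr10:60778328-60778453 (plus strand), KIF4A, a chromosome kinesin, at chrX:70289954-70290089 (plus), CDC20, an activator of the anaphase-promoting complex, at chr1:43358831-43358954 (plus) and ESPL1, the protease that cuts cohesin, at chr12:53268149-53268298 (plus). Counted from the gene start, with the bases not shown included, the capitals start 69 bases before it in CDK1, 34 in KIF4A, 65 in CDC20 and 31 in ESPL1. KIF4A had 2.66 and 4.98 CPM with torkinib, against 91.9 and 96.8 CPM untreated, CDC20 had 2.28 and 4.39 CPM with torkinib, against 64.2 and 67.7 CPM untreated, and ESPL1 had 2.85 and 2.49 CPM with torkinib, against 50.5 and 48.9 CPM untreated.
CDK1: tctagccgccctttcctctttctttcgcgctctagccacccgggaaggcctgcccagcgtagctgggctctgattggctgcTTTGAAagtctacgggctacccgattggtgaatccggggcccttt
KIF4A: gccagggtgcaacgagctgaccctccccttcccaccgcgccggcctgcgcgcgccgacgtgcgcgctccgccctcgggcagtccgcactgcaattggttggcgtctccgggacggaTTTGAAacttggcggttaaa
CDC20: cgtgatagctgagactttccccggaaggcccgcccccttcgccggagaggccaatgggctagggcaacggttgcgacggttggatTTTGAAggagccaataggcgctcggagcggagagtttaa
ESPL1: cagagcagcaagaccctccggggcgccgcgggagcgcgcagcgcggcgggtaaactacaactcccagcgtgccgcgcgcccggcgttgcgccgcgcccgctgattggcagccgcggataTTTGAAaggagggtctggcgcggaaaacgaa

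Genes of DNA replication fell almost as uniformly. Of 39 tested members, 37 fell and 1 rose, with a median of -1.97. CDC6, which loads the replicative helicase, had 69 and 69.9 CPM with torkinib, against 906 and 971 CPM untreated, PCNA, the sliding clamp, had 50.7 and 53 CPM with torkinib, against 242 and 279 CPM untreated, MCM6, a helicase subunit, had 28.5 and 33.4 CPM with torkinib, against 126 and 119 CPM untreated, and GMNN, the inhibitor of repeated licensing, had 8.17 and 8.19 CPM with torkinib, against 44.7 and 47.6 CPM untreated. The exception was ORC3, a subunit of the origin recognition complex (0.63 ± 0.11). Of 13 genes that supply deoxynucleotides, 12 fell and none rose; RRM2, the regulated subunit of ribonucleotide reductase, had 10.1 and 7.61 CPM with torkinib, against 267 and 278 CPM untreated.

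Promoters of these genes carried another element. E2F proteins bind TTTCCCGC or TTTGGCGC, and either string stood on either strand in 13 of 47 windows of replication genes (27.7%), against 677 of 35116 windows of all genes (1.93%) and 3 of 46 of mitotic genes (6.52%). The element is in capitals in the 3 promoters below, PCNA at chr20:5126627-5126772 (minus strand), MCM6 at chr2:135876444-135876593 (minus) and GMNN at chr6:24775263-24775412 (plus). A match of letters is a description of the sequence. The letters of each element were chosen with the results known.
PCNA: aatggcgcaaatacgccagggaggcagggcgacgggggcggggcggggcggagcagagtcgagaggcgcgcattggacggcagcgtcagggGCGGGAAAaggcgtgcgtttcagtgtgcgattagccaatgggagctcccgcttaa
MCM6: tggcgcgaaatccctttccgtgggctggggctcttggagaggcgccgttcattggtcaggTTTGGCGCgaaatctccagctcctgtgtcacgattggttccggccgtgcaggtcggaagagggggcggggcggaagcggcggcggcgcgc
GMNN: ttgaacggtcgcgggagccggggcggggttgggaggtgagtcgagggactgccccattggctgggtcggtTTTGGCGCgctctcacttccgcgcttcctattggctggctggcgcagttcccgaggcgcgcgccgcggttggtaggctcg

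The genes that govern entry into S phase were mixed. Of 32 members, 9 rose and 17 fell, against 26.9% of all genes higher and 28.5% lower. E2F1, an activating E2F, had 6.27 and 5.56 CPM with torkinib, against 62.1 and 65.2 CPM untreated, and CCNE2, a cyclin partner of CDK2, had 1.14 and 0.732 CPM with torkinib, against 7.44 and 6.3 CPM untreated. Of the INK4 inhibitors, CDKN2B had 28.5 and 24.4 CPM with torkinib, against 5.84 and 4.25 CPM untreated, and CDKN2C had 3.42 and 4.83 CPM with torkinib, against 22.7 and 24.1 CPM untreated. CDK6, a kinase of G1, had 83.8 and 89.1 CPM with torkinib, against 12 and 11.8 CPM untreated, and CCNG2, a cyclin of arrested cells and a FOXO target, had 112 and 109 CPM with torkinib, against 30.8 and 32.1 CPM untreated. CDKN1B, the inhibitor p27, rose by 0.57, whereas CDKN1A, the inhibitor p21, had 9.69 and 8.34 CPM with torkinib, against 10.1 and 8.36 CPM untreated (edgeR adjusted p = 0.85). CCND1, cyclin D1, fell (420.0 and 443 CPM with torkinib, against 605 and 609 CPM untreated), and MYC rose by 0.21, but not without torkinib replicate 2 (0.20, edgeR adjusted p = 0.065) or untreated replicate 2 (0.16, adjusted p = 0.13). Of 23 targets of p53, 7 rose (4 without untreated replicate 2) and 8 fell (5 without untreated replicate 1).

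**Figure D3:**
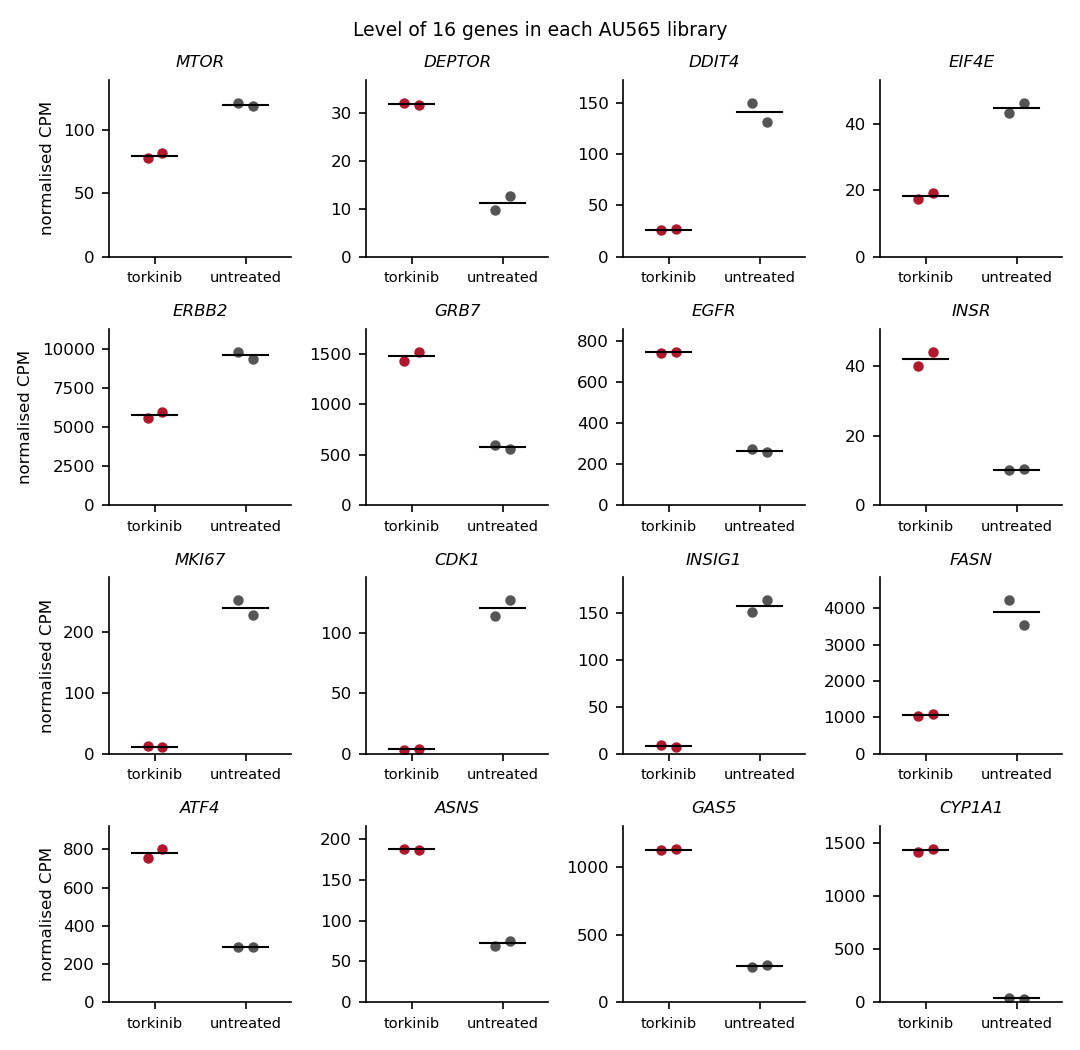
Normalised CPM (y axis, from 0, a scale of its own for each gene) of 16 genes in the 2 torkinib and 2 untreated AU565 libraries, with the mean of each group as a bar. Points of the same group lie close together, and the groups do not overlap for any of the 16 genes. Of all genes tested, the groups do not overlap with torkinib higher in 37.5% and with torkinib lower in 36.8%.

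DNA repair genes, the subject of the series, divided by pathway. The labels state that homologous recombination, Fanconi anaemia and high-fidelity polymerase genes were repressed, so their counts are not independent evidence of direction. Of 41 genes of homologous recombination, 24 fell and 9 rose, with a median of -0.81. RAD54L, a motor protein of strand exchange, had 1.52 and 1.46 CPM with torkinib, against 22.4 and 19.5 CPM untreated, EXO1, a nuclease that resects breaks, had 3.04 and 3.22 CPM with torkinib, against 47.3 and 50.2 CPM untreated, and BRCA1, which directs resection, had 4.18 and 4.39 CPM with torkinib, against 20.7 and 16.3 CPM untreated. Members that rose included ATM, the kinase that signals breaks (131 and 137 CPM with torkinib, against 55.9 and 49.9 CPM untreated), and RAD52, a strand-annealing protein (20.9 and 17.1 CPM with torkinib, against 6.05 and 5.89 CPM untreated). Of 28 Fanconi anaemia genes, 20 fell and 5 rose (3 without torkinib replicate 2), with a median of -0.88. UBE2T, the ubiquitin-conjugating enzyme of the pathway, had 7.03 and 6.29 CPM with torkinib, against 52.6 and 58.5 CPM untreated. FANCI, a protein it ubiquitinates, had 12.7 and 13.6 CPM with torkinib, against 84 and 88.4 CPM untreated. FAN1, a nuclease, rose (83 and 85.6 CPM with torkinib, against 45.7 and 41.4 CPM untreated).

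Of 12 replicative polymerase genes, 10 fell and 1 rose. POLE2, a subunit of polymerase epsilon, had 1.9 and 1.76 CPM with torkinib, against 22.4 and 22.2 CPM untreated, and the catalytic subunits POLE, POLD1 and POLA1 fell with log2 fold changes of -0.61, -1.01 and -0.37. POLD4, the small subunit of polymerase delta, went the other way (7.79 and 10.1 CPM with torkinib, against 4.46 and 4.52 CPM untreated), and PRIM2, a primase subunit, had 0.01 ± 0.16 (edgeR adjusted p = 1). Among the other falls were POLA2 (-1.87), POLD2 (-0.87), POLD3 (-1.11), POLE3 (-0.30), POLE4 (-0.71) and PRIM1 (-0.79). The call of POLA1 ended without torkinib replicate 2 (-0.26, edgeR adjusted p = 0.14) or untreated replicate 2 (-0.29, adjusted p = 0.073), and that of POLE3 without untreated replicate 2 (-0.25, adjusted p = 0.054). Of 15 genes of error-prone polymerases and their recruitment, 6 rose and 4 fell, against 26.9% of all genes higher and 28.5% lower. POLQ, which joins ends by microhomology, had 1.52 and 1.17 CPM with torkinib, against 25.8 and 21 CPM untreated, whereas POLI, a translesion polymerase, had 23.6 and 20.8 CPM with torkinib, against 8.5 and 7.26 CPM untreated. REV3L, the catalytic subunit of polymerase zeta, and POLK rose by 0.82 and 0.40, and POLL by 0.92. POLH, REV1, POLB and POLM had changes of 0.02, -0.03, -0.34 and 0.17 and were not called. POLM was called without torkinib replicate 1 (0.36, edgeR adjusted p = 0.043) and with only the AU565 groups in the fit (0.20, adjusted p = 0.043). POLK was not called without torkinib replicate 2 (0.37, edgeR adjusted p = 0.076) or untreated replicate 1 (0.38, adjusted p = 0.055). POLN had 21 reads with torkinib against 3 untreated, higher by a ratio of 9.67 (exact 95% counting interval 2.89 to 50.6).

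Of the excision and end-joining lists, base excision repair fell most often. The shares of all genes were 28.5% lower and 26.9% higher. Base excision repair had 13 falls and 4 rises among 24 genes, with a median of -0.50. NEIL3, a glycosylase of S-phase cells, was lowest (0.19 and 0.439 CPM with torkinib, against 13.9 and 13.4 CPM untreated). Nucleotide excision repair had 5 falls and 9 rises among 24, with ERCC6, of its transcription-coupled branch, at 35.7 and 37 CPM with torkinib, against 18.1 and 18.6 CPM untreated. Mismatch repair had 4 falls and 3 rises among 9, and non-homologous end joining 4 falls and 1 rise among 11. PRKDC, the catalytic subunit of DNA-PK, had 315 and 355 CPM with torkinib, against 368 and 347 CPM untreated (edgeR adjusted p = 0.66). Of 20 checkpoint genes, 11 fell and 4 rose. CHEK1, the effector kinase of ATR, had 14.4 and 15.1 CPM with torkinib, against 41 and 47.4 CPM untreated, and CLSPN, its adaptor, had 1.14 and 0.732 CPM with torkinib, against 25.7 and 23.6 CPM untreated. ATR had 60.03 and 59.8 CPM with torkinib, against 64.2 and 57.4 CPM untreated (edgeR adjusted p = 0.88).

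Sterol and fatty acid synthesis fell. The factors SREBF2 and SREBF1 activate these genes, and complex 1 of MTOR is known to promote their processing. Of 27 genes of cholesterol synthesis and uptake, 21 fell and none rose, with a median of -1.65. INSIG1, which retains the factors in the endoplasmic reticulum and is itself a target, had 9.31 and 7.17 CPM with torkinib, against 151 and 163 CPM untreated (-4.27 ± 0.13). IDI1, which isomerises the isoprene unit, had 26.8 and 29.4 CPM with torkinib, against 139 and 138 CPM untreated, and FDPS, which joins such units, had 55.9 and 56.5 CPM with torkinib, against 244 and 245 CPM untreated. LSS and PMVK, enzymes of the same chain, had log2 fold changes of 0.14 and 0.12 and were not called. Of 24 genes of fatty acid synthesis, 18 fell and 2 rose (none rose without torkinib replicate 1 or untreated replicate 1, and 1 without untreated replicate 2), with a median of -1.28. FASN, the fatty acid synthase, had 1032 and 1091 CPM with torkinib, against 4218 and 3547 CPM untreated, SCD, the stearoyl desaturase, had 260.4 and 265 CPM with torkinib, against 1514 and 1532 CPM untreated, and SREBF1 had 145 and 141.8 CPM with torkinib, against 713 and 679 CPM untreated. SREBF2 fell as well (109 and 124 CPM with torkinib, against 264 and 247 CPM untreated). THRSP, a lipogenic cofactor, had 0 reads with torkinib against 67 untreated, at least 16.2-fold lower.

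Carbon metabolism fell in its later steps more evenly than in glycolysis. Of 33 glycolytic and hypoxia-response genes, 21 fell and 2 rose. LDHA, lactate dehydrogenase, had 590.2 and 584 CPM with torkinib, against 1525 and 1623 CPM untreated, and HIF1A, the hypoxia factor, fell by 1.21 on the log2 scale. SLC2A1, the main glucose transporter, had 206 and 219 CPM with torkinib, against 201 and 203 CPM untreated (edgeR adjusted p = 0.41), and VEGFA, a hypoxia target that drives vessel growth, rose (183 and 183 CPM with torkinib, against 92.5 and 86.2 CPM untreated). Of 9 pentose phosphate genes 5 fell and none rose, with TKT, a transketolase, at 687 and 738 CPM with torkinib, against 1552 and 1564 CPM untreated. All 24 genes of the citric acid cycle and its entry fell, with a median of -0.98. IDH2, a mitochondrial isocitrate dehydrogenase, had 50.9 and 48.1 CPM with torkinib, against 267 and 269 CPM untreated, and PC, pyruvate carboxylase, had 20.3 and 16.8 CPM with torkinib, against 126 and 127 CPM untreated.

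Nuclear genes of the respiratory chain fell, and some transcripts of mitochondrial DNA rose. Of 74 nuclear-encoded respiratory chain and ATP synthase genes, 68 fell and 2 rose (1 rose without torkinib replicate 1, untreated replicate 1 or untreated replicate 2), with a median of -1.05. NDUFS6, of complex I, had 23.4 and 23.3 CPM with torkinib, against 95.7 and 97.8 CPM untreated, and UQCRC1, of complex III, had 75.4 and 81.8 CPM with torkinib, against 259 and 263 CPM untreated. Of 74 genes of the mitochondrial ribosome, 55 fell and 3 rose. Of 12 genes encoded in mitochondrial DNA, none fell and 3 rose (10 rose and 1 fell with only the AU565 groups in the fit), MT-ND1 with 2523 and 2617 CPM with torkinib, against 1146 and 977 CPM untreated, MT-CO1 with 18377 and 17737 CPM with torkinib, against 10547 and 9772 CPM untreated and MT-ND2 with a change of 0.63. The call of MT-CO1 ended without untreated replicate 2 (0.77, edgeR adjusted p = 0.068) and that of MT-ND2 without any of the 4 libraries (adjusted p between 0.065 and 0.13), and the count of rises ran from 1 to 10 over the alternatives. These values move with the larger share of mitochondrial reads in the torkinib libraries. NEAT1, a nuclear RNA that is not translated, rose beside them (3293 and 3254 CPM with torkinib, against 1168 and 853 CPM untreated), and MALAT1, another, had 676 and 713 CPM with torkinib, against 617 and 461 CPM untreated (edgeR adjusted p = 0.25). Whether the composition of the libraries had a part in these values was not tested.

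The mRNAs of cytosolic ribosomal proteins rose together, whereas translation factors and ribosome biogenesis genes moved both ways. Many mRNAs of the translation machinery begin with a terminal oligopyrimidine tract, through which MTOR controls their translation. Of 79 ribosomal protein genes, 74 rose and none fell, against 26.9% of all genes higher, with a median of 0.71. RPS27 had 1018 and 1015 CPM with torkinib, against 339 and 384 CPM untreated, RPL23 had 850.1 and 859 CPM with torkinib, against 353 and 351 CPM untreated, and RPS6, the substrate of S6 kinase, had 2546 and 2602 CPM with torkinib, against 1324 and 1391 CPM untreated. The 5 not called included RPSA and FAU, with 0.08 and 0.14. Processed pseudogenes of ribosomal proteins share reads with them, so single values are uncertain. EEF1A1, the elongation factor that brings tRNA to the ribosome, had 6785 and 6595 CPM with torkinib, against 2856 and 3105 CPM untreated, and EEF2, the translocation factor, rose by 0.77. Of 36 translation factors, 17 rose and 11 fell, and of 58 genes of ribosome biogenesis, 18 rose and 23 fell. The shares of all genes were 26.9% higher and 28.5% lower.

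Host genes of small nucleolar RNAs rose beside the ribosomal proteins. All 11 tested members rose, with a median of 1.54. GAS5, which carries such a tract and hosts several of these RNAs in its introns, had 1119 and 1130.4 CPM with torkinib, against 264 and 278 CPM untreated (2.05 ± 0.07). SNHG12 had 77.1 and 73.7 CPM with torkinib, against 25.3 and 23.8 CPM untreated, and SNHG1 had the smallest rise, 0.30 ± 0.11, which was not called without torkinib replicate 1 (0.26, edgeR adjusted p = 0.12), torkinib replicate 2 (0.33, adjusted p = 0.051) or untreated replicate 2 (0.25, adjusted p = 0.13). IMPDH2, the enzyme of guanine nucleotide synthesis, had 518 and 521 CPM with torkinib, against 162 and 170.5 CPM untreated, within a list of 16 purine and pyrimidine genes of which 5 rose and 9 fell (3 rose without untreated replicate 1). POLR1D, shared by RNA polymerases I and III, had 164 and 166 CPM with torkinib, against 70.5 and 84.1 CPM untreated, and POLR3G, an RNA polymerase III subunit of proliferating cells, had 1.33 and 1.76 CPM with torkinib, against 9.77 and 10.4 CPM untreated.

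Targets of ATF4 were divided. ATF4 is the transcription factor of the amino acid and integrated stress responses, and MTOR complex 1 is known to promote its synthesis. Of 34 tested genes, which are ATF4 itself and its targets, 16 rose and 9 fell, with a median of 0.27. The shares of all genes were 26.9% higher and 28.5% lower. ATF4 had 757 and 803 CPM with torkinib, against 289 and 288 CPM untreated (1.44 ± 0.07). CBS, which condenses serine and homocysteine, had 73.1 and 79.7 CPM with torkinib, against 7.65 and 7.26 CPM untreated, DDIT3, the stress factor CHOP, had 35.9 and 43.2 CPM with torkinib, against 3.61 and 5.34 CPM untreated, and CHAC1, which degrades glutathione, had 10.4 and 12.1 CPM with torkinib, against 2.55 and 2.19 CPM untreated. ASNS, asparagine synthetase, had 187 and 186 CPM with torkinib, against 68.9 and 75.5 CPM untreated, and SLC7A11, the cystine transporter, had 42.2 and 42 CPM with torkinib, against 14.4 and 11 CPM untreated. The falls were led by DDIT4 and by GPT2, an alanine transaminase (58.5 and 53.7 CPM with torkinib, against 115 and 113 CPM untreated). The serine enzymes PHGDH and PSAT1 had changes of -0.09 and -0.34, of which that of PSAT1 was called, though not without torkinib replicate 2 (-0.28, edgeR adjusted p = 0.051).

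ATF4 binds a C/EBP-ATF response element, read here as TGATGNAA, where N is any base. It stood on either strand in 6 of 47 windows of ATF4 and its targets (12.8%). Of windows of all genes it stood in 1104 of 35116 (3.14%), and in none of the mitotic or replication genes. A narrower form (TGATGCAA or TGATGNAAT) stood in 4 of 47 (8.51%), against 506 of 35116 (1.44%), and the wider form was taken after the narrower one. The 4 of these 6 genes that rose are ATF3, ASNS, CEBPG and CHAC1, and the others, SLC1A5 and JDP2, were not called. Their sites are shown with the element in capitals, for CHAC1 as its reverse complement. ATF3 lies at chr1:212565205-212565234 (plus strand), ASNS at chr7:97872458-97872487 (minus), CEBPG at chr19:33374060-33374089 (plus) and CHAC1 at chr15:40953251-40953280 (plus).
ATF3: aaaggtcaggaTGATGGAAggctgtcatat
ASNS: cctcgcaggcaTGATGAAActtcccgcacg
CEBPG: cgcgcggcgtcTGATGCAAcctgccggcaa
CHAC1: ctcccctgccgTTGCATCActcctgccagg

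The response of ATF4 and its targets differed between AU565 and the other lines. The difference in log2 fold change, AU565 minus SKBR3, was higher for 27 of the 34 and lower for none, against 10.9% of all genes higher and 13.1% lower. The count was 28 without SKBR3 untreated replicate 1 and 27 without replicate 2. SKBR3 had 0.8 µM and AU565 4 µM, so line and dose cannot be told apart. Against the mean of A375 and SKMEL28, at the same dose, 30 of 34 were higher and 2 lower, against 17.9% and 20.2% of all genes, and 30 and 2 without A375 untreated replicate 1. List medians were 0.27 in AU565, -0.81 in SKBR3, -2.13 in A375, -1.03 in SKMEL28 and -0.65 in 94T778. CHAC1 differed by 4.24 ± 0.29 from SKBR3 and by 6.80 ± 0.36 from the melanoma lines, CBS by 3.43 ± 0.20 and 6.67 ± 0.18, and ASNS by 2.37 ± 0.12 and 4.75 ± 0.11. The differences share their AU565 libraries with each other and with the AU565 response.

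**Figure D4:**
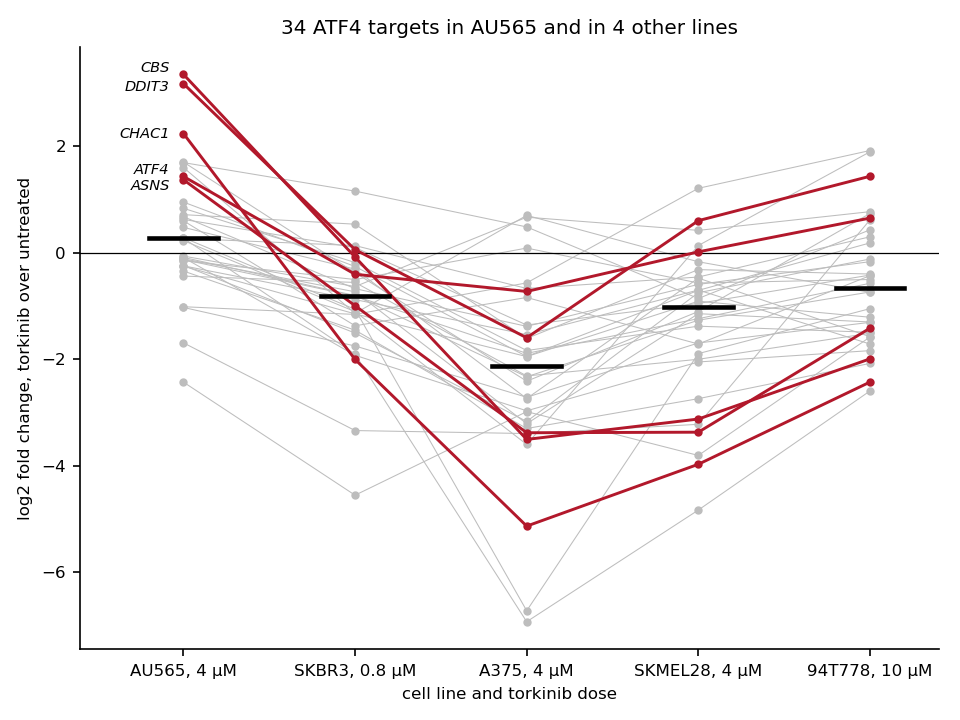
Log2 fold changes of torkinib over untreated (y axis) of ATF4 and its targets, 34 genes, in AU565 and 4 other lines (x axis, with dose). Each gene is a line, 5 of them named and in red, and a black bar is the median of each cell line. The AU565 median is 0.27, and those of the other lines lie between -0.65 and -2.13.

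Untreated AU565 cells held less of most of these transcripts than untreated SKBR3 cells. This comparison with SKBR3 was chosen after seeing the data and carries no test. In untreated cells, both AU565 libraries lay below both SKBR3 libraries for 27 of 34 genes (ATF4 and its targets) and above them for 4. The shares of all genes were 34.4% and 34.1%, and the median log2 ratio of the 34 was -1.19 (pseudocount 0.5 CPM). With torkinib, AU565 lay below SKBR3 for 11 and above it for 18, against 31.3% and 35.6% of all genes, with a median of 0.10. ASNS had 187 and 186 CPM in AU565 and 208 and 208 CPM in SKBR3 with torkinib, and 68.9 and 75.5 CPM in AU565 and 445 and 384 CPM in SKBR3 untreated. CHAC1 had 10.4 and 12.1 CPM in AU565 and 18.1 and 13.7 CPM in SKBR3 with torkinib, and 2.55 and 2.19 CPM in AU565 and 71.2 and 55.4 CPM in SKBR3 untreated. CBS had 73.1 and 79.7 CPM in AU565 and 44 and 44.1 CPM in SKBR3 with torkinib, and 7.65 and 7.26 CPM in AU565 and 56 and 38.2 CPM in SKBR3 untreated. The lines were also grown in different media, AU565 with sodium pyruvate added, and the part of medium was not tested.

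The tRNA synthetases, several of them ATF4 targets, rose in part. Of 22 genes, 12 rose and 4 fell, with a median of 0.26, against -0.34 in SKBR3. Among all genes tested, the difference from SKBR3 was higher for 10.9% and lower for 13.1%. AARS, the alanyl enzyme, had 203 and 223 CPM with torkinib, against 105 and 101 CPM untreated, and HARS, the histidyl enzyme, fell (99.7 and 105 CPM with torkinib, against 166 and 163 CPM untreated). The difference from SKBR3 was higher for 10 and lower for none, 10 without SKBR3 untreated replicate 1 and 11 without replicate 2. Of 25 amino acid transporters, 7 rose and 9 fell, near the 26.9% of all genes higher and 28.5% lower with torkinib. SLC1A4, a neutral amino acid carrier, had 10.3 and 9.22 CPM with torkinib, against 3.19 and 3.15 CPM untreated, and SLC43A2, a leucine carrier, had 3.42 and 5.27 CPM with torkinib, against 33.2 and 30.01 CPM untreated. Of 24 genes of the redox factor NRF2, glutathione and redox metabolism, 15 fell and 3 rose. NQO1, a quinone reductase, had 141 and 145 CPM with torkinib, against 498 and 534 CPM untreated, and HMOX1, haem oxygenase, had 4.37 and 2.78 CPM with torkinib, against 16.6 and 15.3 CPM untreated.

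The rise of CYP1A1 was part of a small group. This group holds the aryl hydrocarbon receptor, the ligand-activated factor of xenobiotic response, and its targets. Of its 9 tested genes, 6 rose and 1 fell. CYP1B1 had 96.5 and 97.9 CPM with torkinib, against 23.5 and 24.9 CPM untreated, TIPARP, a repressor of the receptor, had 65.3 and 60.1 CPM with torkinib, against 25.2 and 25.5 CPM untreated, and AHR itself had 159 and 163 CPM with torkinib, against 87.4 and 83.7 CPM untreated. NQO1, also a target of NRF2, was the member that fell. In SKBR3 CYP1A1 had 346 and 349 CPM with torkinib, against 10.5 and 14.6 CPM untreated, and its change differed from that of AU565 by 0.45 ± 0.16 (edgeR adjusted p = 0.028). In A375 and SKMEL28 its log2 fold changes were 0.28 and -1.51.

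Protein quality control fell. Of 38 proteasome genes, 35 fell and 1 rose, with a median of -0.70. PSMD2, a subunit of the regulatory particle, had 131 and 138 CPM with torkinib, against 353 and 334 CPM untreated, and PSMB6, a catalytic subunit, had 30.6 and 28.8 CPM with torkinib, against 81.8 and 80.2 CPM untreated. The exception was PSMB4 (0.44 ± 0.07). Of 24 genes of the unfolded protein response 16 fell and 4 rose, with XBP1, its factor, at 381 and 369.6 CPM with torkinib, against 1215 and 1239.7 CPM untreated and ERN1, the sensor that splices XBP1, at 41.2 and 47.1 CPM with torkinib, against 19.1 and 11.8 CPM untreated. Of 26 heat shock proteins and chaperonin subunits, 18 fell and 3 rose (1 rose without untreated replicate 2), and HSPB1 had 386 and 401 CPM with torkinib, against 1639.6 and 1557 CPM untreated.

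Autophagy and lysosome genes moved both ways. Of 45 autophagy genes, 16 rose and 14 fell, near the 26.9% of all genes higher and 28.5% lower. ATG14, of the initiating lipid kinase, had 62.5 and 69.8 CPM with torkinib, against 25.4 and 27.3 CPM untreated, GABARAPL1, of the membrane conjugates, had 104 and 114 CPM with torkinib, against 53.7 and 51.7 CPM untreated, and WIPI1, which reads the lipid signal, had 33.6 and 34.2 CPM with torkinib, against 151 and 158 CPM untreated. ULK1, the kinase that MTOR inhibits, rose by 0.50. Of 63 lysosome genes, 14 rose and 31 fell. CTSO, a cysteine protease, had 29.8 and 27.1 CPM with torkinib, against 5.63 and 6.72 CPM untreated. GLA, the galactosidase deficient in Fabry disease, had 6.65 and 6.88 CPM with torkinib, against 25.9 and 31.4 CPM untreated. TFEB, the lysosomal transcription factor that MTOR holds in the cytoplasm, had 4.75 and 5.56 CPM with torkinib, against 7.01 and 7.81 CPM untreated (edgeR adjusted p = 0.093), and MITF, of its family, had 21.1 and 22.8 CPM with torkinib, against 6.69 and 5.89 CPM untreated.

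Luminal identity genes moved both ways. Of 36 tested members, 12 rose and 16 fell, against 26.9% of all genes higher and 28.5% lower. ESR1, the oestrogen receptor, had 2.66 and 3.22 CPM with torkinib, against 1.38 and 0.548 CPM untreated, and ELF3, an epithelial ETS factor, had 939.8 and 947 CPM with torkinib, against 370.0 and 353 CPM untreated. GATA3, a factor of the luminal lineage, rose by 0.51. Leaving out untreated replicate 2 ended the calls of ESR1 (1.09, edgeR adjusted p = 0.062) and GATA3 (0.45, adjusted p = 0.11) and gave 7 rises. That of ESR1 also ended without torkinib replicate 2 (1.37, edgeR adjusted p = 0.055) and that of GATA3 without torkinib replicate 1 (0.37, adjusted p = 0.22) or untreated replicate 1 (0.57, adjusted p = 0.065). Among the falls were AGR2, a secretory protein, with 209 and 214 CPM with torkinib, against 772 and 801 CPM untreated and KRT8 with 1494 and 1528 CPM with torkinib, against 3061 and 3258 CPM untreated. Of 17 tested basal and mesenchymal genes, 1 rose and 3 fell, and 1 fell without either torkinib replicate or without untreated replicate 1.

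Antigen presentation and interferon genes responded otherwise than in SKBR3. Of all genes tested, the difference from SKBR3 was higher for 10.9% and lower for 13.1%. Classical class I genes fell, HLA-B with 8.55 and 9.07 CPM with torkinib, against 20.6 and 20.3 CPM untreated and HLA-C with 23.2 and 20.2 CPM with torkinib, against 48 and 38.1 CPM untreated; these genes are alike in sequence and share reads. Of 16 genes of class I presentation, 7 rose and 5 fell (3 fell without torkinib replicate 1 or untreated replicate 2), among the rises PSMB9, an immunoproteasome subunit (6.65 and 4.98 CPM with torkinib, against 2.66 and 1.92 CPM untreated). The difference from SKBR3 was lower for 11 of the 16 and higher for none, and lower for 10 when either untreated SKBR3 library was left out. HLA-B differed by -2.12 ± 0.25, with 12.9 and 14.7 CPM with torkinib, against 7.71 and 7.03 CPM untreated in SKBR3. Of 36 interferon-stimulated genes, 12 rose and 9 fell, near the 26.9% of all genes higher and 28.5% lower with torkinib. IRF1, an interferon regulatory factor, had 64.4 and 63.4 CPM with torkinib, against 22.1 and 23.6 CPM untreated, and IFIT3, of the IFIT family that binds viral RNA, had 1.71 and 2.19 CPM with torkinib, against 0.212 and 0.411 CPM untreated, whereas IFI6 had 4.94 and 4.1 CPM with torkinib, against 30.1 and 30.4 CPM untreated and OAS3, which makes oligoadenylate, had 22.8 and 20.8 CPM with torkinib, against 82.2 and 91.4 CPM untreated. Against SKBR3, 12 of the 36 were lower and none higher (7 lower without torkinib replicate 2 of AU565, 8 without SKBR3 untreated replicate 1, and 10 lower and 1 higher without its untreated replicate 2). Of 24 genes of inflammatory cytokines and NF-kB feedback, 3 rose and 6 fell. NFKBIZ, an atypical inhibitor, had 80.2 and 81.5 CPM with torkinib, against 15.6 and 15.2 CPM untreated.

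Feedback and early genes rose in part. For their differences between lines, the shares of all genes were 10.9% higher and 13.1% lower against SKBR3. Against the melanoma lines they were 17.9% and 20.2%. Of 25 FOXO genes and targets, 13 rose and 6 fell. With torkinib in AU565, 26.9% of all genes were higher and 28.5% lower. FOXO3 had 78.6 and 85.7 CPM with torkinib, against 20.5 and 19.5 CPM untreated, PDK4, which turns off pyruvate dehydrogenase, had 14.4 and 12.7 CPM with torkinib, against 2.55 and 3.29 CPM untreated, and TXNIP, which restrains glucose uptake, had 578 and 569 CPM with torkinib, against 237 and 237 CPM untreated. Of 21 immediate early genes, 13 rose and 3 fell, EGR1 with 1482 and 1452 CPM with torkinib, against 629 and 577 CPM untreated and KLF2 with 38.2 and 35.9 CPM with torkinib, against 12.7 and 15.1 CPM untreated. Against SKBR3, 13 of the 21 were higher and none lower (12 without SKBR3 untreated replicate 1; 14 higher and 1 lower without replicate 2), and against the melanoma lines 6 were higher and 13 lower. Of 20 feedback genes of the MAP kinase pathway, 10 rose and 3 fell, with DUSP5, a phosphatase of ERK, at 73.1 and 80.6 CPM with torkinib, against 25.3 and 28.1 CPM untreated. Of 19 BCL2 family genes, 7 rose and 6 fell. BMF, which promotes cell death when it leaves the cytoskeleton, had 138 and 146 CPM with torkinib, against 10.5 and 11 CPM untreated, and BBC3, also of that class, rose by 1.18. MCL1, a survival protein, rose by 0.66, and BAD, a substrate of AKT, had 7.41 and 9.95 CPM with torkinib, against 29.2 and 31.8 CPM untreated.

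Some smaller groups had single members with large changes. For their counts, the shares of all genes were 26.9% higher and 28.5% lower. Of 19 clock genes, 8 rose and 5 fell (3 without untreated replicate 1), RORA, a nuclear receptor, with 10.6 and 6.73 CPM with torkinib, against 0.637 and 0.685 CPM untreated and BHLHE40, a repressor, with 15.6 and 21.1 CPM with torkinib, against 94.1 and 86.1 CPM untreated. Of 12 genes of the MYC network, 6 rose and 3 fell, MXI1, an antagonist of MYC, with 47.1 and 44.8 CPM with torkinib, against 14.2 and 15.9 CPM untreated. Histone genes are mostly transcribed without a poly(A) tail, and 34 of 62 were too low to test; of the 28 others, 10 rose and 5 fell. H2AFZ, a replacement variant of H2A, had 71.2 and 65.6 CPM with torkinib, against 304 and 337 CPM untreated. Of 42 splicing genes 30 fell and 4 rose, with HNRNPA2B1 at 762 and 760.5 CPM with torkinib, against 1488 and 1595 CPM untreated.

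The whole response was then set against the other lines. The difference from SKBR3 was called for 4005 genes, 1819 higher (10.9%) and 2186 lower (13.1%). The difference from the mean of A375 and SKMEL28 was called for 6352 genes, 2982 higher (17.9%) and 3370 lower (20.2%). The numbers come from contrasts of unequal precision, since the second averages 2 lines. Without SKBR3 untreated replicate 1 the difference from SKBR3 counted 1527 genes higher and 1811 lower, and without replicate 2 it counted 2067 higher and 2760 lower. Without torkinib replicate 2 of AU565 it counted 1169 higher and 1723 lower. Without A375 untreated replicate 1 the difference from the melanoma lines counted 2802 higher and 3286 lower.

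Proliferation genes had a deeper response than in the melanoma lines. For the 51 mitotic genes the median was -4.13 in AU565, -4.36 in SKBR3, -2.14 in A375 and -2.60 in SKMEL28. The difference from the melanoma lines was lower for 50 of 51, and that from SKBR3 was lower for 1 and higher for 2 (lower for 1 and higher for 5 without SKBR3 untreated replicate 1, lower for 5 and higher for 2 without replicate 2). CDK1 had a log2 fold change of -4.95 in AU565, with -4.36 in SKBR3, -1.96 in A375 and -2.85 in SKMEL28. Respiratory genes did as well: the difference from the melanoma lines was lower for 69 of 74 and higher for 1, and that from SKBR3 was lower for 4 and higher for 9 (7 and 14 without SKBR3 untreated replicate 2, 2 and 9 without torkinib replicate 1 of AU565, 3 and 6 without its torkinib replicate 2).

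Lipid and proteasome genes differed from both. Of all genes tested, the response was lower for 13.1% and higher for 10.9% than in SKBR3. Than in the melanoma lines it was lower for 20.2% and higher for 17.9%. Of 27 cholesterol genes, 13 were lower and 3 higher than in SKBR3 as differences of response (9 and 3 without SKBR3 untreated replicate 1), and 20 were lower and none higher than in the melanoma lines. INSIG1 differed by -1.73 ± 0.27 from SKBR3 and by -2.86 ± 0.16 from the melanoma lines, and IDI1 by -1.40 ± 0.16 and -1.46 ± 0.14. Of 24 fatty acid genes, 12 were lower than in SKBR3 and none higher, and 14 were lower and 1 higher than in the melanoma lines. FASN changed by -1.87 in AU565, -1.12 in SKBR3, -0.39 in A375 and 0.43 in SKMEL28. Of 38 proteasome genes, 13 were lower and 2 higher than in SKBR3, and 30 were lower and 1 higher than in the melanoma lines.

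**Figure D5:**
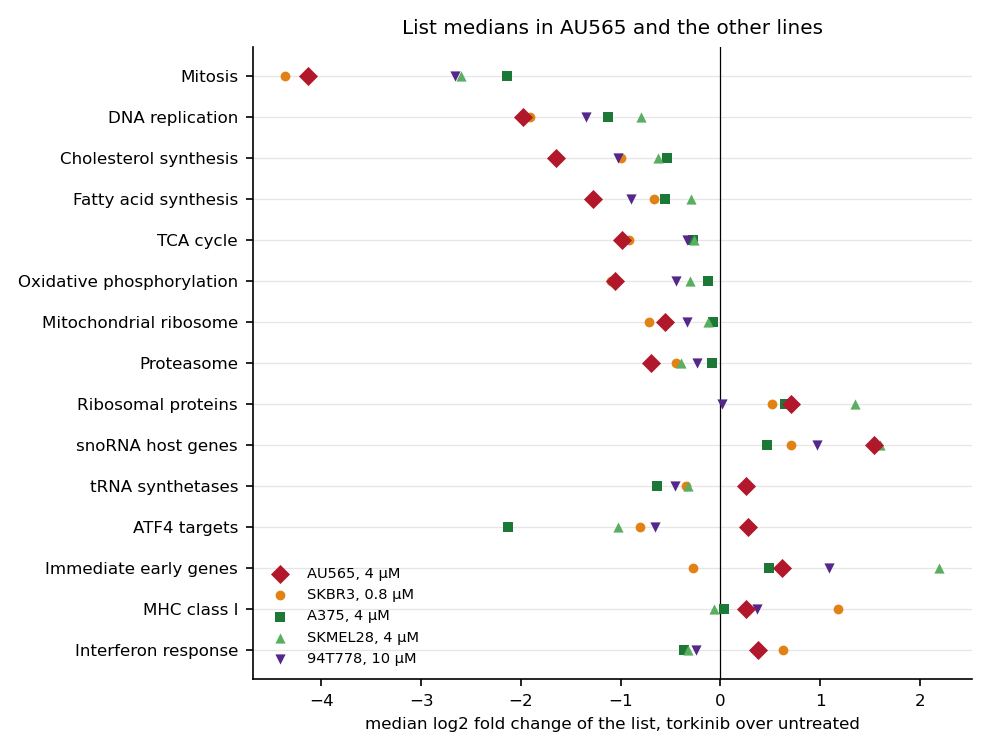
Median log2 fold change of torkinib over untreated (x axis) of each gene list (y axis) in AU565 (diamonds) and in SKBR3, A375, SKMEL28 and 94T778 (other symbols, with doses). Mitosis and oxidative phosphorylation have similar medians in AU565 and SKBR3, and the list of ATF4 and its targets has a median above 0 in AU565 alone.

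Several receptor genes had a higher response in AU565 than in the melanoma lines. Of 25 members, 12 had a higher response and 2 a lower one, against 17.9% and 20.2% of all genes. Against SKBR3, 3 were higher and 3 lower, near the 10.9% and 13.1% of all genes. INSR differed by 1.75 ± 0.17 and IGF1R by 1.39 ± 0.11 from the melanoma lines. EGFR changed by 1.49 in AU565 and 1.52 in SKBR3, against -3.12 in A375 and -0.80 in SKMEL28. For ribosomal protein genes, the difference from the mean of the melanoma lines was lower for 47 of 79 and higher for none. Their list medians were 0.71 in AU565, 0.65 in A375 and 1.35 in SKMEL28. The difference from SKBR3 was higher for 28 and lower for 1. Fewer were higher when torkinib replicate 2 or untreated replicate 1 of AU565 was left out.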

How the data were processed

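Total RNA was extracted with the Qiagen RNeasy midi kit and sequenced, per the labels' protocols. The authors deposited whole read counts per gene symbol for each library, not normalised, made with HISAT2 2.04 and HTSeq 0.6.1 on hg19, and named limma 3.34.9, per the submitters' processing notes. No source used here gives the annotation or whether strand was used, so overlapping and antisense genes cannot be told apart. HTSeq's summary categories were left out of totals and tests. In AU565 libraries, reads assigned to no feature were 7.30% and 6.92% with torkinib, against 5.43% and 5.88% untreated, and reads aligned to several places were not counted, which affects gene families most.

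Of 50775 features, 31339 had a count and 16698 passed edgeR's filterByExpr. All 20 libraries, in 10 groups of 2, entered 1 edgeR 4.0.16 quasi-likelihood fit in R 4.3.3 (TMM, robust, 10 residual degrees of freedom), because 2 libraries a group estimate the spread poorly. Its contrasts were AU565 torkinib against untreated, that response minus the SKBR3 response, and that response minus the mean of the A375 and SKMEL28 responses, each adjusted over all genes at 0.05. The fit was tested on simulated counts. Replicates of AU565 differed by more than sampling noise (chi-square per gene of 1.34 with torkinib and 2.11 untreated). Replicates of SKBR3, which enter the difference between the breast lines, differed more, with 3.15 with torkinib and 11.1 untreated. The value of untreated SKBR3 was the largest of the 10 groups. Zero counts were kept in the fits. Only for bounds on a fold was a group with no reads set at a floor of 3 reads over the group.

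The 62 gene lists, their members and the tests were chosen with earlier results of these data known. Genes are named as the 12 largest rises and 12 largest falls, the 4 smallest p-values of a list, a fixed set of MTOR, receptor, cell cycle and polymerase genes, the 5 largest differences each way, or as list members with a stated role. Results of a few such genes are not reported here. Promoter windows are from RefSeq (GRCh38.p14), matched by symbol for 24165 of the features; no coordinate was converted from hg19. Alternatives were DESeq2 1.42.0, its size factors, limma-voom 3.58.1, no filter, only the groups compared, a replicate block, a test against 2-fold, thinned libraries and single libraries left out. The libraries left out in turn were each of AU565, each untreated one of SKBR3 and A375 untreated replicate 1.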

Additional observations from a re-analysis of the deposited data

Results flagged for a closer look

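The AU565 response of the following genes differed from that of another line by a test of the difference itself (edgeR's quasi-likelihood test, Benjamini-Hochberg adjusted p under 0.05), and they are among the 5 largest differences each way among genes called both in that difference and in AU565, at 10 CPM or more in AU565. Values are log2 fold changes of torkinib over untreated, AU565 minus the other line.

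Against SKBR3, whose dose was 0.8 µM, the differences were highest for TGFBR3, a co-receptor of TGF-beta, at 5.07, CHAC1 at 4.24, SCGB2A2, the secretoglobin mammaglobin, at 4.24, CBS at 3.43 and DDIT3 at 3.12. SCGB2A2 had 76.9 and 67.9 CPM with torkinib, against 87.4 and 96.6 CPM untreated in AU565, and 1.79 and 3.03 CPM with torkinib, against 60.6 and 59 CPM untreated in SKBR3. Its call in AU565 itself was lost without torkinib replicate 2 (-0.27, edgeR adjusted p = 0.092) or untreated replicate 2 (-0.29, adjusted p = 0.055) and by DESeq2 (adjusted p = 0.051). They were lowest for SELE, an endothelial selectin, at -5.80, ABCG2, a drug efflux pump, at -3.84, S100A8 at -3.09 and TRANK1 at -3.08. ABCG2 had 13.9 and 10.7 CPM with torkinib, against 26.2 and 30.6 CPM untreated in AU565, and 3.37 and 2.87 CPM with torkinib, against 0.184 and 0.732 CPM untreated in SKBR3.

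Against the mean of A375 and SKMEL28, at the same 4 µM, the differences were highest for LBH at 9.43, MYPN, a sarcomere protein, at 7.11, CHAC1 at 6.80, CBS at 6.67 and NUPR1, a stress-induced chromatin protein, at 6.16. NUPR1 had 68.6 and 82.7 CPM with torkinib, against 64.2 and 61.3 CPM untreated in AU565, with log2 fold changes of -6.93 in A375 and -4.83 in SKMEL28. Its call in AU565 itself was lost by DESeq2 (adjusted p = 0.099), limma-voom (0.063) and edgeR with no filter (0.090), and without torkinib replicate 2 (0.12, edgeR adjusted p = 0.56), untreated replicate 1 (0.30, adjusted p = 0.091) or untreated replicate 2 (0.24, adjusted p = 0.18). They were lowest for AKR1C2 at -8.49, CLCA2 at -7.37, HGD at -6.20, FADS2 at -6.13 and STC1, a secreted glycoprotein, at -5.73. Fitted values of genes with no or almost no reads in a group depend on the prior count and are not bounds.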

How the results depend on the processing

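No called gene named here changed direction under any alternative run. Of the list medians plotted, those near 0 changed sign, for error-prone polymerases without torkinib replicate 2 (-0.05) and for autophagy under several settings (-0.05 with no filter). Leaving out 1 library at a time, including the untreated SKBR3 and A375 libraries added after seeing the data, gave 3645 to 3981 genes higher and 4207 to 4405 lower with torkinib in AU565, 1169 to 2067 higher and 1723 to 2760 lower for the difference from SKBR3, and 2379 to 2802 higher and 2873 to 3286 lower for the difference from the melanoma lines. A test against 2-fold called 970 genes higher and 1168 lower in AU565, 80 higher and 69 lower for the difference from SKBR3, and 527 higher and 403 lower for that from the melanoma lines. The other alternatives kept these totals within 1.5 times, but not every list. Rises of mitochondrially encoded genes numbered 5 with DESeq2, 6 with limma-voom and 7 with the replicate block. With only the groups compared, rises numbered 6 of cytokine and NF-kB feedback genes, 5 of mismatch repair, 5 of the mitochondrial ribosome and 2 of replication. With no filter, rises numbered 3 of purine and pyrimidine, 1 of fatty acid synthesis and 1 of respiratory genes. Falls numbered 2 of the aryl hydrocarbon receptor and its targets. DESeq2 gave 1 rise of fatty acid synthesis and 3 falls of class I presentation, basal genes had 2 rises under several settings, and thinning gave them 1 fall.

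No pairing of libraries by replicate number was detected. The correlation of same-numbered deviations was -0.03 in AU565 and ran from -0.06 to 0.09 over the 5 lines. A value near 0 cannot settle whether same-numbered libraries share a culture, which the labels leave unsaid. With the replicate block, 4509 genes were higher and 4789 lower in AU565. Of 234 genes named with an AU565 value, 208 were called, and 20 changed their call under an alternative other than the 2-fold test. Among them ERBB3, FAU, JDP2, MALAT1, POLM and MDM2, not called in AU565, were called with only the groups compared. With 2 libraries a group, the spread is borrowed from all 5 lines, and fits on the AU565 groups alone gave 4763 genes higher and 4821 lower. A lone library left in a group is assumed to vary like the others.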

Other observations

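Genes of fatty acid oxidation moved less evenly than those of synthesis, with 3 rises and 9 falls among 23. ETFA, an electron carrier subunit of that pathway, had 149 and 151 CPM with torkinib, against 380.5 and 365 CPM untreated, and CPT1B, a carnitine transferase best known from muscle, had 11 and 8.78 CPM with torkinib, against 4.57 and 3.43 CPM untreated.

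Markers of cell types that AU565 cultures should lack stayed far below the luminal sum. Endothelial genes summed to 97.1 and 101 CPM with torkinib, against 58.5 and 59.5 CPM untreated, leukocyte genes to 26.8 and 19.6 CPM with torkinib, against 41.5 and 43.2 CPM untreated, and fibroblast genes to 3.80 and 3.80 CPM with torkinib, against 9.14 and 9.04 CPM untreated. Of the melanocyte list, MCAM, an adhesion protein also of other cells, had 62.7 and 56.2 CPM with torkinib, against 6.05 and 5.89 CPM untreated, while TYR had no read in any of the 4 libraries.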
